A study of Homo sapiens with 4 samples.

Results

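The proteases that cut the extracellular matrix, and the inhibitors that hold them back, were followed after PRR11 silencing in the ACHN line, which was established from a human renal cell carcinoma. The set holds 10 genes, chosen by name from the 36359 rows of the count table: the matrix metalloproteinases MMP1, MMP2, MMP7, MMP9 and MMP14, the tissue inhibitors TIMP1, TIMP2 and TIMP3, the urokinase gene PLAU and its receptor gene PLAUR. RNA-seq compared cells transfected with a control siRNA (siNC, 2 libraries) with cells transfected with siPRR11 (2 libraries). All cells were grown in MEM with serum and transfected with a Lipofectamine reagent, and the labels name no time point, no batch and no siPRR11 duplex. They also do not say that the 2 libraries of a group came from separate cultures, so p-values measure only the spread between these libraries, which may be technical. The study is concerned with PRR11 in the proliferation and metastasis of renal cell carcinoma, and the comparison asks which of these genes differ in mRNA level between siPRR11 and siNC cells.

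Matrix metalloproteinases are zinc-dependent endopeptidases that are made as inactive proenzymes and opened by cleavage. MMP1 is an interstitial collagenase, MMP2 and MMP9 are gelatinases that cut denatured and basement membrane collagen, MMP7 is the small matrilysin, and MMP14 is anchored in the plasma membrane, where it cuts collagen and activates pro-MMP2. TIMP proteins bind the active site of these enzymes, and TIMP2 also bridges MMP14 and pro-MMP2 at the cell surface, so that it takes part in the activation as well as in the inhibition. Urokinase, the product of PLAU, binds its receptor uPAR (PLAUR) and turns plasminogen into plasmin, a serine protease that cuts fibrin and several proenzymes of this family.

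PRR11, the targeted gene, fell to 35.9% of the siNC level, by -1.48 on the log2 scale (SE 0.0909; edgeR quasi-likelihood adjusted p = 3.35e-06). Exons of other genes overlap 3.31% of its exonic bases on the same strand and 2.38% on the opposite one. The 4 libraries held between 59003839 and 92612749 counted reads, of which the 10 genes took between 0.0404% and 0.0443%. All 7 markers of renal epithelial and carcinoma cells were detected, with a summed level between 3416 and 3859 CPM (counts scaled to library size with TMM factors) in siNC and between 3454 and 3569 CPM in siPRR11. Of these 7, KRT18 was called higher (log2 fold change 0.36) and KRT19 lower (-0.70) in siPRR11 by edgeR. The 4 endothelial markers summed to at most 0.446 CPM and the 5 leukocyte markers to at most 1.71 CPM, with LYZ the single one of these 9 genes above 1 CPM in any library. The 5 fibroblast and mural markers summed to between 24.1 and 28.3 CPM, nearly all of it from ACTA2 and MYH11. Of these 3 lists, only 2 leukocyte, 1 endothelial and 3 fibroblast and mural markers had enough reads to be tested, and none was called.

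In siNC cells the 10 genes fell into an abundant and a barely detected part. Levels between genes are compared as RPKM, the deposited counts scaled to exonic length and library size. PLAU was the highest, at 38.3 and 32.7 RPKM in the 2 siNC libraries, above MMP14 at 25.8 and 23.4 RPKM. TIMP2 (19.36 and 19.96 RPKM) and PLAUR (21.2 and 17.9 RPKM) overlapped each other and lay below MMP14. TIMP1 followed at 6.33 and 6.49 RPKM. These 5 genes stood between the 71.9th and the 93.7th percentile of the genes tested. The other 5 genes had siNC means of 0.133 RPKM or less and at most 67 reads in any of the 4 libraries. MMP7, MMP1 and MMP9 had siNC means of 0.133, 0.129 and 0.114 RPKM, closer together than the libraries of MMP1 or MMP9. TIMP3 lay below them in both siNC libraries, at 0.0732 and 0.0295 RPKM, and MMP2 (0.0342 and 0.00687 RPKM) overlapped TIMP3. Within the set, MMP14 held between 97.2% and 98.5% of the summed RPKM of the 5 MMP genes in every library. TIMP2 held between 75.2% and 83.4% of the sum of the 3 TIMP genes. MMP genes outside the set are left out of this share. Of these, MMP24 and MMP15 had siNC means of 3.86 and 3.30 RPKM, above MMP1, MMP2, MMP7 and MMP9.

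**Figure D1:**
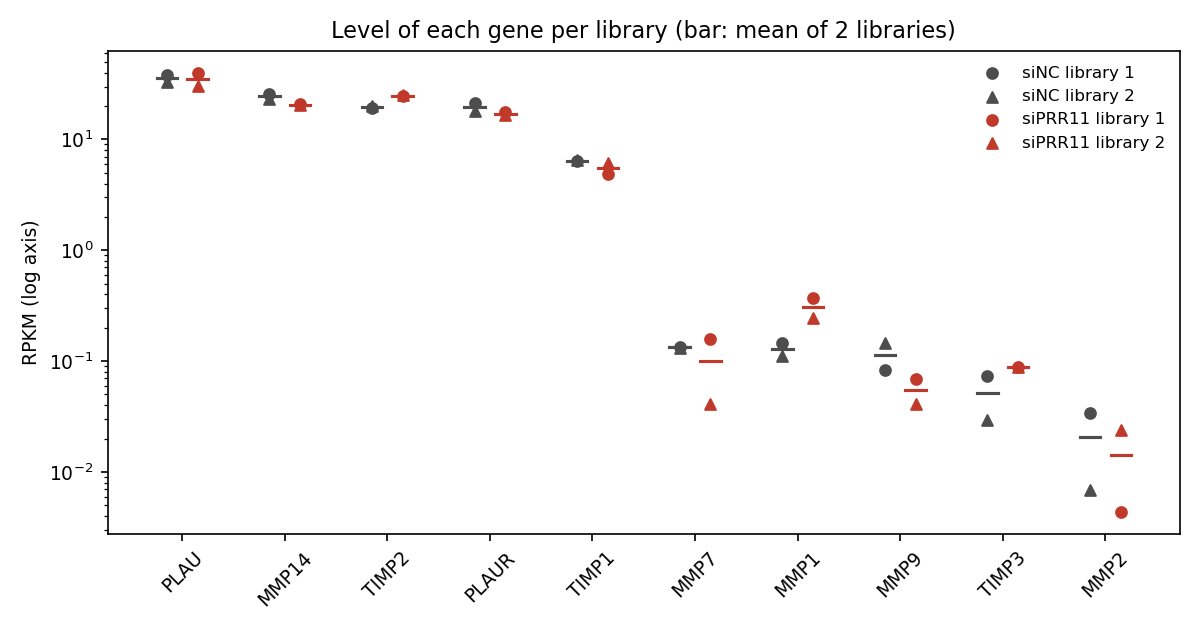
Level of each of the 10 genes in every library (vertical axis: RPKM, log scale), ordered by the siNC mean, with siNC in grey, siPRR11 in red, circles for library 1, triangles for library 2 and bars for the mean of 2 libraries. PLAU, MMP14, TIMP2, PLAUR and TIMP1 lie above 4 RPKM in all libraries, and the other 5 genes lie below 0.4 RPKM.

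RefSeq promoter windows (250 bases before to 50 bases after the gene start, GRCh38.p14) were found for 6 of the 10 genes, with 2 starts for PLAU. No window was available for MMP1, MMP2, MMP9 and TIMP2, so their promoters were not searched. Those of MMP14, MMP7 and PLAUR are printed. Capitals mark TGANTCA (the AP-1 element), GGGCGG (the GC box) and TATAAA (the TATA box), searched on both strands. The window of MMP14 (chr14:22836335-22836634, plus strand) has 55.0% G and C, that of MMP7 (chr11:102530698-102530997, minus strand) 35.7% and that of PLAUR (chr19:43670120-43670419, minus strand) 64.0%, against a median of 58.7% over all 35116 windows. The share did not follow the level of the genes. It was highest for the barely detected TIMP3, at 72.7%, and was 48.7% and 70.0% in the 2 windows of PLAU, the most abundant gene.
MMP14: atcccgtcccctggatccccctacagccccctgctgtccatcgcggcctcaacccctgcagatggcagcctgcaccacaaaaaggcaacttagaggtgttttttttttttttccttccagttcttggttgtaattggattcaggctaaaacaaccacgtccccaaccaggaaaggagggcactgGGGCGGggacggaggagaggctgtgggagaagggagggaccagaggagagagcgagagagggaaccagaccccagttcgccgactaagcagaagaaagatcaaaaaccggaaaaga
MMP7: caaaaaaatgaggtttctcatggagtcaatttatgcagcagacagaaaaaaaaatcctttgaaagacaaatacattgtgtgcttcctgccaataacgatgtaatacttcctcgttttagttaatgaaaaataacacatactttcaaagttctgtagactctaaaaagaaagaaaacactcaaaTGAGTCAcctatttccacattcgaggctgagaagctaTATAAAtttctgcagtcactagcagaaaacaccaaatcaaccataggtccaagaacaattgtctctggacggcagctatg
PLAUR: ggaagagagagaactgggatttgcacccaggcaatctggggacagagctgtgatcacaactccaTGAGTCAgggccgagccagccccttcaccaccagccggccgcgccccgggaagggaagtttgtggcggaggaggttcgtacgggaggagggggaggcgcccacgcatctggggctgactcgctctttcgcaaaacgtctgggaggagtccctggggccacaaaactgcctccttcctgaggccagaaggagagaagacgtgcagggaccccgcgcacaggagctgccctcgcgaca
The AP-1 letters stand 67 bases before the start of MMP7 and 186 bases before that of PLAUR, and in none of the other windows of the set, and 7.71% of all windows hold them. The TATA box letters stand 30 bases before the start of MMP7 alone among the 6 genes with a window, and 11.5% of all windows hold them. GC box letters are in the windows of MMP14, TIMP1, TIMP3 and the downstream start of PLAU, and in 15786 of all 35116 windows. These are matches of letters, and binding was not measured.

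MMP14, the membrane-anchored collagenase and the main MMP mRNA of these cells, was lower in siPRR11 than in siNC cells. It was at 116.9 and 106.1 CPM in the siNC libraries and at 90.6 and 90.2 CPM in the siPRR11 libraries. Neither siPRR11 library reached the siNC range, and they differed from each other by less than the siNC libraries did. The mean went from 111.5 ± 7.58 CPM to 90.4 ± 0.302 CPM (SD, n = 2 each), which is 81.1% of the siNC level. On the log2 scale this was -0.30 (SE 0.0773; edgeR quasi-likelihood p of 0.0195 after Benjamini-Hochberg adjustment over 21630 genes). MMP14 spans bases 22836557 to 22849027 of chromosome 14 (GRCh38, plus strand), and no exon of another gene covers its exons. The call was lost without either siPRR11 library (adjusted p = 0.112 and 0.117 from edgeR), where the log2 fold change stayed at -0.30, and with limma on log2(RPKM + 1) (adjusted p = 0.0858).

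Of the inhibitors, TIMP2 rose and the other two did not pass the test. TIMP2, the partner of MMP14, was at 110.9 and 114.4 CPM in siNC and at 137.7 and 138.4 CPM in siPRR11, with no overlap between the groups. Its mean went from 112.6 ± 2.53 to 138.0 ± 0.544 CPM (SD, n = 2 each), or 122.5% of the siNC level. On the log2 scale the rise was 0.29 (SE 0.0714; edgeR quasi-likelihood adjusted p = 0.0157). TIMP2 lies on chromosome 17 from 78852977 to 78925387 on the minus strand. CEP295NL, a gene within its span on the same strand, shares 3.52% of its exon sequence and had a log2 fold change of 0.28 (edgeR adjusted p = 0.0262). RP11-323N12.5, on the opposite strand, shares 6.52% and had a log2 fold change of 0.27 (edgeR adjusted p = 0.116). How reads of the shared bases were assigned is not stated. The call was lost without siPRR11 library 1 or 2 (adjusted p = 0.104 and 0.116 from edgeR), with the log2 fold change between 0.29 and 0.30. Limma on log2(RPKM + 1) kept it (adjusted p = 0.0308).

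TIMP1 (chrX:47582313-47586789, plus strand), a secreted inhibitor of most soluble MMPs, was at 9.91 and 10.2 CPM in siNC and at 7.38 and 9.28 CPM in siPRR11. The siPRR11 libraries were both lower, but their spread was larger than the gap to siNC. The log2 fold change of -0.27 (SE 0.128, 95% interval -0.55 to 0.01) had an adjusted p of 0.182 from edgeR's test. It lay between -0.44 and -0.11 with single libraries left out, the latter without siPRR11 library 1. TIMP3 (chr22:32801701-32863043, plus strand), the inhibitor that is held in the matrix and also acts on ADAM proteases, had 28 and 8 reads in siNC and 38 and 34 reads in siPRR11. The siPRR11 libraries lay at 0.403 and 0.398 CPM, above siNC at 0.343 and 0.138 CPM, with a log2 fold change of 0.68 (SE 0.471; edgeR adjusted p = 0.37). The 95% interval from -0.35 to 1.71 includes both directions. Without siNC library 1 the log2 fold change was 1.52 and without siNC library 2 it was 0.22.

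The opposite changes of MMP14 and TIMP2 turned their order around on the RPKM scale. In RPKM, MMP14 exceeded TIMP2 in both siNC libraries, with ratios of 1.33 and 1.17, and was below it in both siPRR11 libraries, with ratios of 0.831 and 0.822. The mean ratio was 1.25 ± 0.113 in siNC and 0.826 ± 0.00602 in siPRR11 (SD, n = 2 each), and the groups did not overlap. This ratio is taken within each library, so it does not depend on the scaling between libraries. Its position above or below 1 does depend on the exonic lengths used, 4464 bases for MMP14 and 5633 for TIMP2. In CPM, which is not scaled to length, TIMP2 was already above MMP14 in siNC library 2 (114.4 against 106.1). In siNC library 1 it was below (110.9 against 116.9). Summed over the set, the 5 MMP genes went from 25.0 ± 1.69 to 21.1 ± 0.288 RPKM (SD, n = 2 each). The 3 TIMP genes of the set went from 26.1 ± 0.508 to 30.5 ± 0.918 RPKM (SD, n = 2 each). Other MMP and TIMP genes are left out of these sums. The ratio and the sums are given with no p. The smallest two-sided p of an exact permutation test of 2 libraries against 2 is 0.333. The sums are set almost wholly by MMP14 and by TIMP2 with TIMP1, and they concern mRNA, not enzyme activity.

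**Figure D2:**
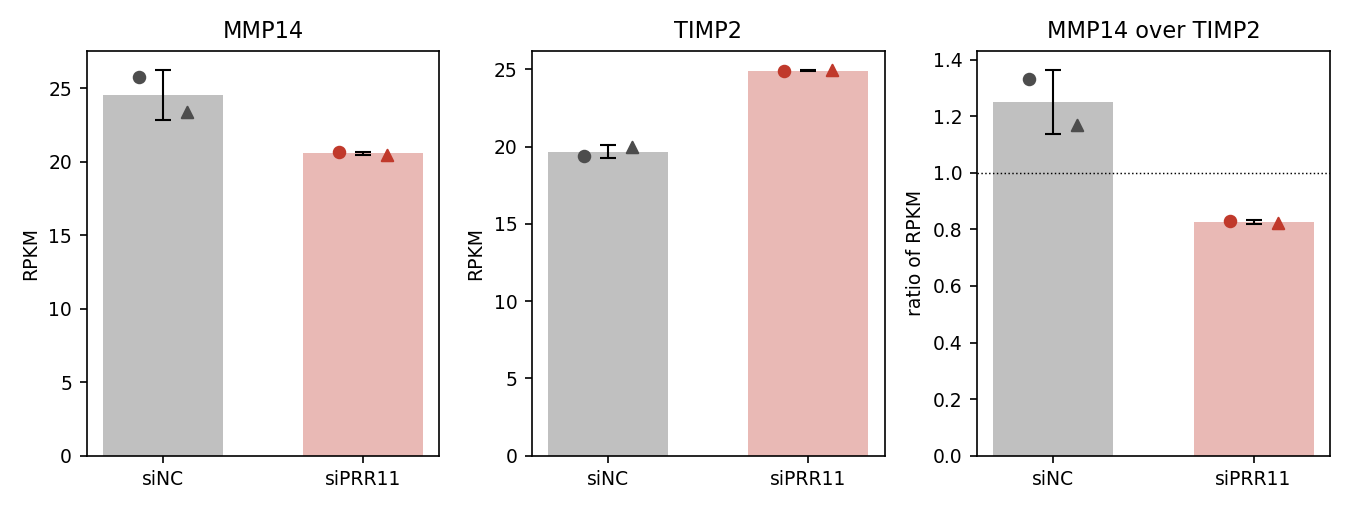
MMP14 and TIMP2 levels (RPKM) and the ratio of MMP14 to TIMP2 in siNC (grey) and siPRR11 (red), with the mean as a bar, the SD of 2 libraries as the error bar, circles for library 1 and triangles for library 2, and a dotted line at a ratio of 1. Both siNC ratios (1.33 and 1.17) lie above the line and both siPRR11 ratios (0.831 and 0.822) below it.

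The collagenase gene MMP1 had the highest log2 fold change of the 9 genes tested, at a very low level. It had 24 and 13 reads in the siNC libraries and 67 and 41 in the siPRR11 libraries, or 0.294 and 0.224 CPM against 0.711 and 0.479 CPM. Both siPRR11 libraries were above both siNC libraries, but they differed from each other by more than the siNC libraries did. The log2 fold change of 1.18 (SE 0.397, 95% interval 0.31 to 2.05) had an unadjusted p of 0.0119 and an adjusted p of 0.0632 from edgeR's test, and was not called. It was called without the filter on low counts (adjusted p = 0.0143 from edgeR) and with at least 10 reads required in every library (adjusted p = 0.0395 from edgeR). MMP1 lies on chromosome 11 from 102789920 to 102798160 on the minus strand. WTAPP1, annotated across it on the other strand, covers 7.61% of its exonic bases. That gene had 47 and 28 reads in siNC and 147 and 114 in siPRR11, a log2 fold change of 1.44 (SE 0.264, adjusted p = 0.00339 from edgeR). Whether the counting used the strand is not stated, so reads of the shared bases cannot be assigned to one of the pair.

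The matrilysin gene MMP7 (chr11:102520508-102530753, minus strand) had 26 and 18 reads in siNC and 34 and 8 in siPRR11. The siPRR11 libraries lay on either side of the siNC libraries, at 0.361 and 0.0935 CPM around 0.318 and 0.310 CPM. Its log2 fold change was -0.45 (SE 0.569; edgeR adjusted p = 0.651), and it became 0.20 without siPRR11 library 2. MMP9 (chr20:46008908-46016561, plus strand), the larger gelatinase, had 16 and 20 reads in siNC and 15 and 8 in siPRR11, with 0.196 and 0.345 CPM against 0.159 and 0.0935 CPM. Its groups did not overlap, and the log2 fold change of -1.05 (SE 0.563, 95% interval -2.28 to 0.18) had an adjusted p of 0.238 from edgeR's test. Of the exonic bases of MMP9, 18.4% lie under exons annotated on the opposite strand. MMP2 (chr16:55389700-55506691, plus strand), the gelatinase that MMP14 activates, was the only gene of the set with too few reads to be tested. It had 14 and 2 reads in siNC and 2 and 10 in siPRR11, so the groups overlapped and no difference was detectable at this depth.

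PLAU (chr10:73909177-73917497, plus strand), the most abundant gene of the set, did not differ detectably between the groups. It was at 115.0 and 98.3 CPM in siNC and at 115.9 and 88.0 CPM in siPRR11, so the siPRR11 libraries enclosed the siNC libraries. The log2 fold change was -0.06 (SE 0.118; edgeR adjusted p = 0.764), and the 95% interval runs from 0.799 to 1.14 times the siNC level. C10orf55, annotated on the opposite strand, shares 31.1% of the exon sequence of PLAU and had a log2 fold change of -0.01. PLAUR (chr19:43646095-43670547, minus strand), which encodes the urokinase receptor, was at 96.0 and 81.3 CPM in siNC and at 77.6 and 72.3 CPM in siPRR11. Both siPRR11 libraries were below both siNC libraries, by less than the distance between the siNC libraries for the nearest pair. Its log2 fold change of -0.24 (SE 0.0905, 95% interval -0.44 to -0.04) had an adjusted p of 0.0922 from edgeR's test and was not called. It was called without a filter on low counts (edgeR adjusted p = 0.0425). Without siNC library 2 it was -0.36 (adjusted p = 0.00232 from edgeR), and without siNC library 1 it was -0.12 (adjusted p = 0.383 from edgeR).

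**Figure D3:**
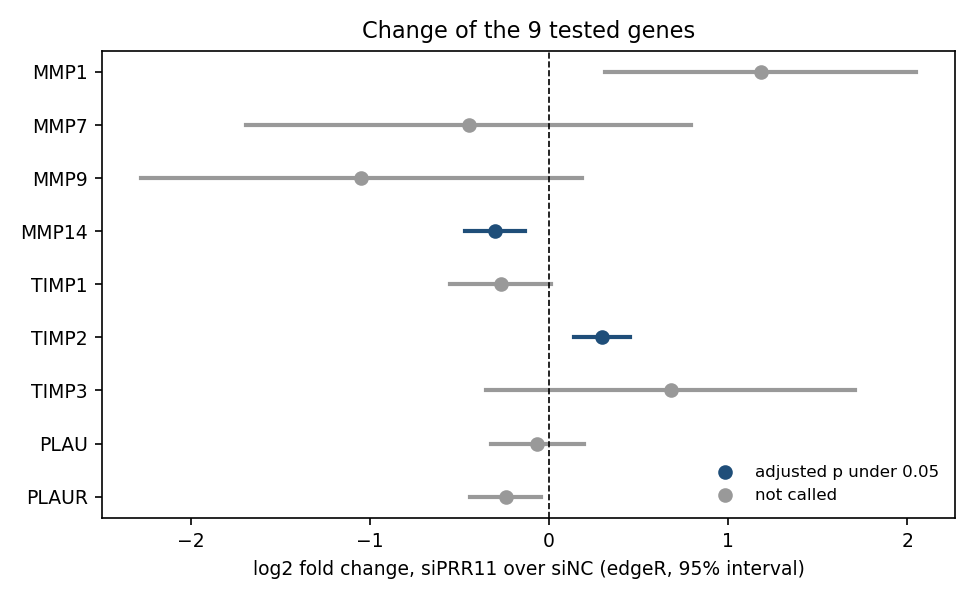
Log2 fold change of siPRR11 over siNC (horizontal axis) of the 9 genes tested, with the 95% interval from edgeR's quasi-likelihood fit as the line. The dark points are MMP14 (-0.30) and TIMP2 (0.29), with an adjusted p-value under 0.05, and the grey intervals of MMP1, MMP7, MMP9 and TIMP3, the genes with few reads, are the widest.

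Of the 9 genes tested, 2 passed the threshold of 0.05 on the adjusted p-value, 1 higher and 1 lower in siPRR11. Over all 21630 genes tested, 16.7% were called, 7.61% higher and 9.14% lower, so the share in the set is close to that of the whole table. The groups did not overlap for 7 of the 9 genes, 3 with higher and 4 with lower siPRR11 libraries, against 58.4% of all genes tested. The median absolute log2 fold change was 0.30 in the set and 0.22 over all genes. In the set, the values above the median were those of MMP1, MMP9, TIMP3 and MMP7. These genes had at most 67 reads in any library and were not called, so the higher median does not show that the set changed more. In bulk RNA, fewer cells that make a transcript and less transcript per cell cannot be told apart. Nor can loss of PRR11 be told apart from other effects of the siRNA, as only siPRR11 and siNC were compared.

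Other genes of the matrix protease and plasminogen systems were taken from 5 lists of 48 genes, of which 42 had a row in the count table and 36 were tested. Of these, 5 were called higher and 8 lower in siPRR11, beside 7.61% higher and 9.14% lower over all genes tested, and their median log2 fold change was -0.03. Among the 18 other MMP genes, 13 had a row and 8 were tested, with 1 called higher, 2 lower and 5 not called. MMP15, a membrane-type enzyme, went from 14.8 ± 2.51 to 9.64 ± 0.965 CPM (SD, n = 2 each), or -0.62 on the log2 scale (SE 0.131; edgeR adjusted p = 0.00722). MMP17 changed by -0.66 (edgeR adjusted p = 0.0469), which was not called by DESeq2 (adjusted p = 0.119) nor without siNC library 1 (adjusted p = 0.178 from edgeR) or either siPRR11 library. MMP24 was higher in siPRR11, at 24.7 ± 0.47 CPM against 17.3 ± 3.99 CPM (SD, n = 2 each), by 0.51 on the log2 scale (SE 0.132, adjusted p = 0.021 from edgeR). Its log2 fold change was 0.29 without siNC library 2, where the call was lost (adjusted p = 0.0557 from edgeR), and 0.77 without siNC library 1, and 21.8% of its exonic bases lie under exons of the opposite strand. Of the other inhibitors, RECK, a membrane-anchored MMP inhibitor, was at 17.2 CPM in siNC and 16.0 CPM in siPRR11 (log2 fold change -0.11, adjusted p = 0.502 from edgeR), and TIMP4 was not called.

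Of 9 tested genes of plasminogen activation beside PLAU and PLAUR, 1 was called higher and 2 lower. Over all genes tested, 7.61% were called higher and 9.14% lower. SERPINE2, an inhibitor of serine proteases, went from 6.56 ± 0.204 to 3.76 ± 0.827 CPM (SD, n = 2 each), by -0.80 on the log2 scale (SE 0.16, adjusted p = 0.00558 from edgeR). SERPINF2, the plasmin inhibitor, rose by 0.53 (adjusted p = 0.0427 from edgeR), which was not called by DESeq2 (adjusted p = 0.0578) nor without siNC library 2 (0.33) or either siPRR11 library. PLAT, the tissue-type activator, was at 8.31 CPM in siNC and 7.39 CPM in siPRR11 and was not called (adjusted p = 0.352 from edgeR).

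Of the 5 activators and inducers of MMPs, 2 were called, both lower, beside 9.14% called lower over all genes tested. CD44, a hyaluronan receptor that can dock MMPs at the cell surface, went from 228.7 ± 8.12 to 154.3 ± 6.06 CPM (SD, n = 2 each), or -0.57 on the log2 scale (SE 0.0733; edgeR adjusted p = 4.14e-04). FURIN, the proprotein convertase that activates pro-MMP14, went from 14.2 ± 0.397 to 9.84 ± 0.196 CPM (SD, n = 2 each), by -0.53 (SE 0.102, adjusted p = 0.00435 from edgeR). In the ADAM family, 3 of 12 tested genes were called higher and 2 lower, beside 7.61% and 9.14% over all genes tested. ADAMTS9, a secreted protease of matrix proteoglycans, was at 112.8 ± 6.11 CPM in siNC and rose to 252.5 ± 4.15 CPM in siPRR11 (SD, n = 2 each), by 1.16 on the log2 scale (SE 0.0746; edgeR adjusted p = 4.41e-06). The membrane proteases ADAM15 and ADAM19 rose by 0.79 and 0.63, while ADAM17, the main shedding enzyme for TNF, changed by -0.51 (SE 0.071; edgeR adjusted p = 6.69e-04). IAH1, on the opposite strand, shares 24.1% of the exonic bases of ADAM17 and changed by -0.40. Overlaps with exons of other genes were smaller for ADAM15 (4.65%, same strand) and ADAMTS9 (1.63%, opposite strand). ADAMTS1 (-0.40) was the remaining gene called, and it is named after its values were seen. It was not called without siPRR11 library 1 (adjusted p = 0.0564 from edgeR). With limma on log2(RPKM + 1) or log2(RPKM + 0.1), MMP15, MMP17, MMP24, SERPINE2, SERPINF2, FURIN and ADAMTS1 were not called (adjusted p between 0.0511 and 0.149 from limma), while CD44, ADAMTS9, ADAM15, ADAM19 and ADAM17 were.

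**Figure D4:**
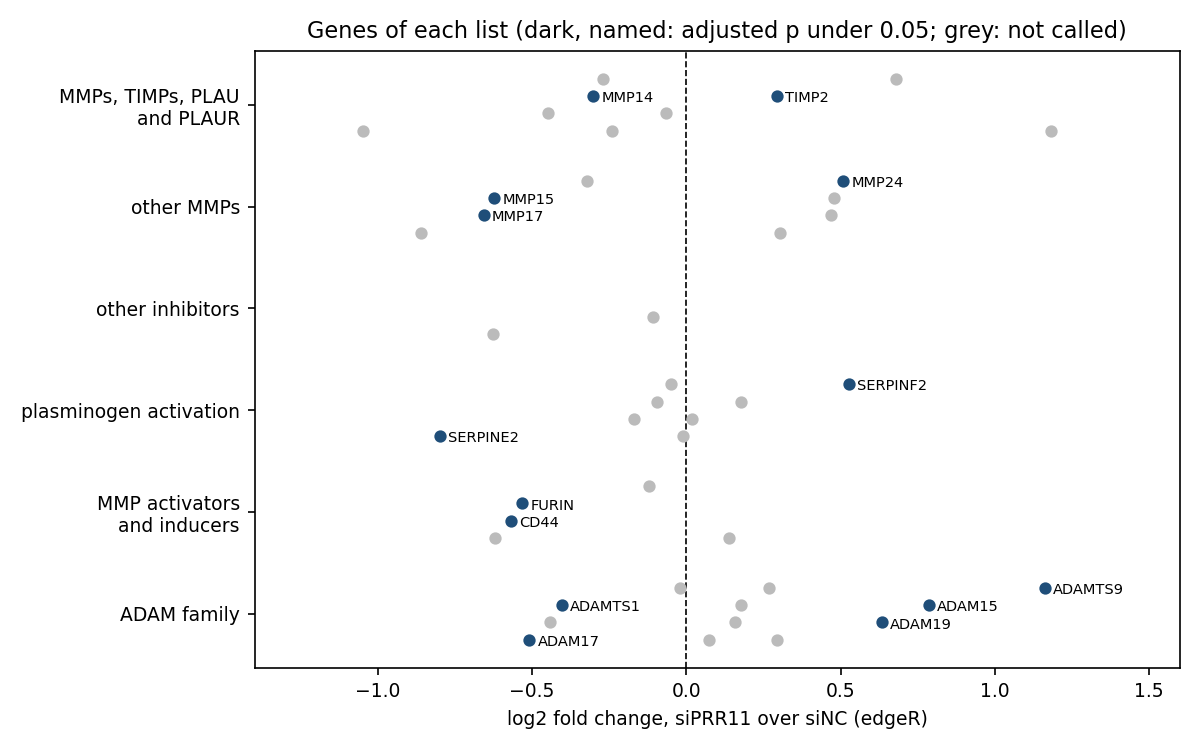
Log2 fold change of siPRR11 over siNC (horizontal axis) of the 9 tested genes of the set (top row) and of the tested genes of the 5 other lists, 1 of them left out, with dark, named points for genes past the 0.05 threshold of edgeR's test and grey points for the rest. Vertical offsets within a row carry no value. ADAMTS9 at 1.16 has the highest dark point, and SERPINE2 at -0.80 the lowest.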

How the data were processed

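RNA of ACHN cells was sequenced after transfection with siNC or siPRR11, with 2 libraries in each group, and groups came from the labels. The authors prepared stranded libraries, trimmed reads (Trimmomatic 0.36 in the submitters' processing notes), mapped them with STAR (GRCh38) and obtained gene counts with featureCounts (Subread 1.5.1). They deposited raw counts and RPKM values, which equal the count divided by exonic length and column total. Annotation release and strand setting are not given in the sources used here, and reads in exons of overlapping genes are uncertain.

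Counts were tested with edgeR 4.0.16 (quasi-likelihood, TMM, filterByExpr, condition as the only term, R 4.3.3), with Benjamini-Hochberg adjustment over 21630 genes and a threshold of 0.05. The SE is the log2 fold change divided by the square root of F. Alternatives were RLE, DESeq2 1.42.0, other filters on low counts, the replicate number as a term, limma 3.58.1 with trend on log2(RPKM + 1) and log2(RPKM + 0.1), and each library left out, where the lone library is assumed to vary like the other group. The tests were tested on simulated data: of 68 genes given a log2 change of 0.3, edgeR recovered 6, and of 68 given 1, 64, among 20963 genes. With limma on log2(RPKM + 1) these numbers were 0 and 16. Of 68 genes given 0.5, edgeR recovered 35 and limma 0. Genes given no change but called numbered 8 with edgeR and 0 with limma. Only genes with a siNC mean above 1 CPM were given a change, and they were few, while 16.7% of genes were called in the data. The simulated libraries also shared no deviation between same-numbered libraries. The recovered numbers therefore do not give the share of such changes found in the data, least of all for the barely detected genes.

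The 10 genes and the lists were chosen with earlier results of these data known. Named beside them are PRR11, PLAT, RECK and, of each list, up to 4 called genes with the largest absolute log2 fold change and an average log2 CPM of at least 0. Of the plasminogen activation list, 1 called gene is included in the counts but not reported here. CEP295NL, RP11-323N12.5, WTAPP1, C10orf55 and IAH1 are named because they overlap named genes, and KRT18, KRT19, LYZ, ACTA2 and MYH11 as cell type markers, after their values were seen. MMP8, MMP12, MMP13, MMP26, MMP27 and SERPINB2 had no row under these names in the count table used here, so they were not analysed. The GC box and TATA box were added to the motif search after the files were seen.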

Additional observations from a re-analysis of the deposited data

How the results depend on the processing

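MMP14 kept its negative and TIMP2 its positive direction in all 11 alternatives, with log2 fold changes between -0.37 and -0.23 and between 0.27 and 0.34. Genes of the set called higher numbered 2 in place of 1 without a filter on low counts, with at least 10 counts in every library, with the replicate block and at an unadjusted p under 0.05, and 0 to 1 with single libraries left out. Those called lower numbered 2 without a filter, 3 with the replicate block, 2 at an unadjusted p under 0.05, 0 with limma at either pseudocount, and 0 to 2 with single libraries left out. With the replicate block MMP1, PLAUR and TIMP1 were also called (adjusted p = 0.0138, 0.00154 and 0.0167 from edgeR). The labels tie no libraries of different groups to each other, and with 2 libraries a group the shared numbers are no evidence of pairing. Deviations of same-numbered libraries correlated at 0.48 over 14193 genes. Of the other lists, 9 genes were called higher in place of 5 with the replicate block, and limma called 3 higher and 2 lower at either pseudocount. Over all genes 3622 were called, against 6988 with the replicate block, 1775 and 1878 with limma, and 2172 and 2393 without siPRR11 library 1 or 2. The cause of these differences was not tested. Left-out libraries moved MMP7 between -1.73 and 0.20, PLAU between -0.28 and 0.12 and the sum of PLAU and PLAUR in siPRR11 between 84.9% and 104.8% of siNC. RLE changed no call. DESeq2 gave no adjusted p for MMP1, MMP7, MMP9 and TIMP3. These 4 genes and MMP2 had at most 67 reads in any library, and each group has 2 libraries.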

Other observations

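MMP3 and MMP10, encoding stromelysins, lie on the same stretch of chromosome 11 as MMP1, and they were looked at after the values of MMP1 and WTAPP1 had been seen. MMP3, from 102835801 to 102843803 on the minus strand, had 2 and 0 reads in siNC and 15 and 8 in siPRR11. Both siPRR11 libraries were above both siNC libraries, but the reads were too few for the gene to be tested. WTAPP1, whose exons cover 1.56% of those of MMP3 on the other strand, had more reads in siPRR11 as well. MMP10, from 102770503 to 102780628 on the minus strand, had 5 and 0 reads in siNC and 2 and 4 in siPRR11, and its groups overlapped.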
